A study of Mus musculus with 18 samples.

Results

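The vehicle cultures of the series were compared between 24 h and 12 h, to describe how mouse ovarian follicles changed in culture with FSH and LH when no anti-Müllerian hormone (AMH) was added. They were chosen by title, and they make up 6 of the 18 arrays, 3 at 24 h and 3 at 12 h. All groups held preantral and small antral follicles of C57BL/6Ntac mice of 6 to 8 weeks, cultured in medium with 80 IU/L FSH and 10 IU/L LH. The vehicle cultures differed from the other 12 only in lacking AMH, which those received at 50 or 200 ng/mL for 24 or 12 h. Follicles of 7 mice were pooled for each experiment, and each pool was divided over vehicle and both AMH doses at 1 time. The 24 h and 12 h arrays therefore came from different pools and experiments, and time and experiment cannot be told apart beyond the 3 pools of each time. The submitters describe arrays as comparable within an experiment. No uncultured follicles are among the arrays analysed here, so each change is a difference between a later and an earlier time in culture.

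A follicle is an oocyte surrounded by granulosa cells, with theca cells outside them once it has begun to grow. FSH acts through its receptor on granulosa cells and raises cAMP, which drives aromatase, inhibin subunits and the other genes of the growing follicle. LH acts mainly on theca cells and, in mature follicles, on mural granulosa cells, where its surge switches on EGF-like ligands (amphiregulin, betacellulin and epiregulin) and the genes that build the hyaluronan matrix around the oocyte. Such stimuli first induce immediate early genes such as the FOS and EGR transcription factors, whose transcripts last only briefly. FOS proteins pair with JUN proteins to form AP-1, and the cAMP-activated factor CREB binds the cAMP response element.

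The values are MAS5 signals, the brightness of a probe set on a linear scale, in arbitrary units with the 2% trimmed mean of every array at 150. Changes are log2 differences, 24 h minus 12 h, of signal + 16, so that folds of dim genes are understated. Median signals per array lay between 28.6 and 31.7 at 24 h and between 23.1 and 29.4 at 12 h. The 3 arrays of 24 h were more alike (Pearson r across probe sets 0.983 to 0.986) than those of 12 h (0.957 to 0.979), and the median SD of a probe set was 0.19 at 24 h and 0.27 at 12 h on the log2 scale. Ratios of 3′ to 5′ signal, a sign of RNA integrity, overlapped between the times (Actb 1.05 to 1.21 at 24 h and 1.05 to 1.19 at 12 h). The number of arrays limits the precision, and an exact permutation test of 3 against 3 arrays could not go below a two-sided p of 0.1 for a single gene, so all tests below borrow strength across probe sets.

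The labelled material was checked against defining markers. The granulosa cell genes Foxl2, at signals of 1004, 862 and 1001 at 24 h and 477, 451 and 431 at 12 h, and Amhr2, at 1332, 1522 and 1500 at 24 h and 855, 1391 and 543 at 12 h, were present on every array. The zona pellucida gene Zp3, an oocyte marker, had signals of 158, 1172 and 625 at 24 h and 846, 1786 and 41.9 at 12 h. Of the 12 h arrays, replicate 3 had the lowest signals of oocyte genes, with Gdf9 at 33.1 against 527 and 771 in replicates 1 and 2. The same array had the highest sums of theca and of endothelial markers, with both sums above those of the other 5 arrays. The theca enzyme gene Cyp17a1 had signals of 168, 29.8 and 421 at 24 h and 40, 21.7 and 737 at 12 h. Red blood cell markers were near 0, with a summed signal of 5 genes of 27.5 to 35.6 at 24 h and 16.2 to 34.1 at 12 h. In these pools of whole follicles, a change in the share of a cell type and a change in RNA per cell cannot be told apart. Many of the gene lists below are given also with 12 h arrays left out, but not every count or direction that this moved is printed.

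Limma called 246 of the 22518 probe sets tested at an adjusted p under 0.05 (1.09%), 169 of them higher at 24 h (0.751%) and 77 lower (0.342%). With 1 probe set per gene these were 161 of 11201 genes (1.44%), of which 111 were higher at 24 h (0.991%) and 50 lower (0.446%). In all 246 probe sets the 3 signals at 24 h did not overlap the 3 at 12 h, and 230 differed by more than 1 on the log2 scale. The smallest adjusted p was 0.0129, and 4162 probe sets had an unadjusted p under 0.05. By gene, 20.4% had an unadjusted p under 0.05 (11.4% higher and 8.94% lower at 24 h), and in 26.2% the groups did not overlap (13.9% higher and 12.2% lower). Leaving out 1 array moved the count widely. It was 1, 0 and 0 without 24 h replicate 1, 2 or 3 (with 2331, 3256 and 3159 at an unadjusted p under 0.05), and 337, 35 and 461 without 12 h replicate 1, 2 or 3. The labels do not pair the times, so fits with the replicate number as a block stand only beside the unpaired fit. With that block, 629 probe sets passed (407 higher and 222 lower), and 245 of the 246 were among them. By gene, 2.23% then passed as higher and 1.33% as lower. These shares were 1.66% and 0.954% without 12 h replicate 3, 1.42% and 0.43% without replicate 1, and 0.153% and 0.0629% without replicate 2, and they are the background of the list counts given for those fits. Without any 1 of the 24 h arrays no list below held a call. Every called probe set that was still tested kept its direction in each of these fits. Since their groups do not overlap, these fits could not have turned a direction.

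**Figure D1:**
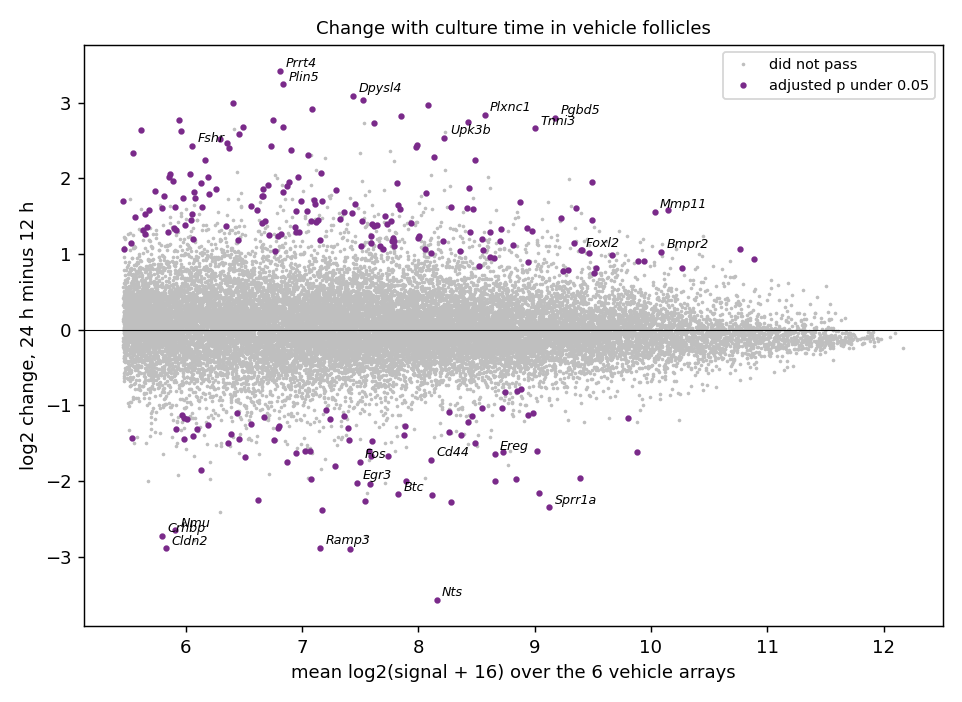
Log2 change (24 h minus 12 h, vertical axis) of each of the 22518 tested probe sets against its mean log2(signal + 16) over the 6 vehicle arrays (horizontal axis). Purple points are the 246 that passed an adjusted p of 0.05, grey points did not pass, and named genes are labelled at their highest probe set; the called points reach from Nts at -3.57 to Prrt4 at 3.42.

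The 20 largest falls, chosen among genes whose groups do not overlap, held secreted peptides, EGF-like ligands, an interleukin and transcription factors of the immediate early class. The deepest was Nts, which encodes neurotensin. Nts had signals of 72.7, 76.4 and 53.5 at 24 h and 796, 1696 and 666 at 12 h, a log2 change of -3.57 (SE 0.33, adjusted p = 0.0129) or 11.9-fold lower. All 3 arrays of 24 h lay far below the lowest of 12 h. Nmu, which encodes the peptide neuromedin U, had signals of 7.05, 11.6 and 5.61 at 24 h and 217, 205 and 50.0 at 12 h (-2.65, SE 0.45, adjusted p = 0.042). Sprr1a, a gene of the cornified envelope of epithelia that is also induced by tissue injury, had signals of 215, 197 and 294 at 24 h and 923, 2216 and 936 at 12 h (-2.34, SE 0.33, adjusted p = 0.0272). Fos stood at 54.9, 122 and 82.3 at 24 h and 229, 361 and 374 at 12 h (-1.74, SE 0.29, adjusted p = 0.0408), with no overlap.

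The 250 bases before the start of these 4 genes are shown because 3 of them hold a match to the AP-1 motif TGANTCA and the fourth is the gene of the AP-1 subunit itself. They come from RefSeq (GRCm38.p6), read 5′ to 3′ on the gene's strand up to the base before the transcript start. Capitals mark matches to the AP-1 motif and to a short form of the cAMP response element (here called its core), TGACG, or CGTCA on the other strand. The windows are chr10:102490419-102490668 (minus strand) for Nts, chr5:76363778-76364027 (minus) for Nmu, chr3:92485882-92486131 (minus) for Sprr1a and chr12:85473640-85473889 (plus) for Fos.
Nts: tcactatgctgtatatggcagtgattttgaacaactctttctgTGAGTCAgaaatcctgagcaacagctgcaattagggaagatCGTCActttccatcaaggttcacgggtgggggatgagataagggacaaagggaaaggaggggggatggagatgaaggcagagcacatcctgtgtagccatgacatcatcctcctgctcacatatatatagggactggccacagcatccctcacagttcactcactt
Nmu: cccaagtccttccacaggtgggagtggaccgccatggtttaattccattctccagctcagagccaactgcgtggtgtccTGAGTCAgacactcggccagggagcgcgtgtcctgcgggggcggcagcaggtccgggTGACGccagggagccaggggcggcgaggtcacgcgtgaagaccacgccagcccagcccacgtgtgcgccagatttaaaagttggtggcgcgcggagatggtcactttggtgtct
Sprr1a: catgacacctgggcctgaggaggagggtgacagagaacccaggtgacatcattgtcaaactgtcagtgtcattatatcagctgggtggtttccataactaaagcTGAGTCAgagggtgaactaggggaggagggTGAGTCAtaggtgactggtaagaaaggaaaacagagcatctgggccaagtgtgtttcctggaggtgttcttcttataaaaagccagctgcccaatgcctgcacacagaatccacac
Fos: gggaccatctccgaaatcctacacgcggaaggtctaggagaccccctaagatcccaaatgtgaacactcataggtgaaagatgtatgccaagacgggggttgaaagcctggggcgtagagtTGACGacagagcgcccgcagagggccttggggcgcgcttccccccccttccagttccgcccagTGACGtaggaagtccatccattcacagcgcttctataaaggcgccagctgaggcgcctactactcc

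In the Nts window the AP-1 match began 207 bases before the start, with a cAMP core 166 bases before it, and in the Nmu window these lay 171 and 114 bases before the start. The Sprr1a window held 2 AP-1 matches, and the Fos window 2 cAMP cores and no AP-1 match. Of the genes that fell past the threshold, 34 of 50 had a window and 6 of the 34 held an AP-1 match on either strand (17.6%). Of the genes that rose, 90 of 111 had a window and 2 held one (2.22%). Among all tested genes with a window the share was 489 of 9105 (5.37%), and among all 32851 windows 6.75%. The cAMP core was in 11 of the 34 fallen genes (32.4%), 18 of the 90 risen genes (20%) and 2817 of the 9105 tested genes (30.9%). These are matches of letters in 1 stretch of DNA and were not tested.

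Betacellulin and epiregulin, both EGF-like ligands, were lower at 24 h, and amphiregulin was not analysed here. Btc (betacellulin) had signals of 95.7, 104 and 75.1 at 24 h and 294, 787 and 433 at 12 h (-2.17, SE 0.33, adjusted p = 0.0326). Ereg (epiregulin) had 152, 196 and 320 at 24 h and 657, 574 and 891 at 12 h (-1.64, SE 0.27, adjusted p = 0.0406). The groups of both genes lay apart, as the choice of the largest falls requires. Hbegf, another EGF-like ligand gene, picked out after its value was seen, stood at -0.88 and did not pass (adjusted p = 0.235). Of the 16 tested genes of the list of LH-induced and cumulus expansion genes, which holds both, 11 were lower and 5 higher, with a median of -0.83 beside -0.003 over all 11201 genes, and 2 fell past the threshold (12.5%, against 0.446% of all genes). Ptgs2, the prostaglandin synthase of cumulus expansion, stood at 112, 109 and 154 at 24 h and 243, 1008 and 238 at 12 h (-1.55, SE 0.49), and did not pass (adjusted p = 0.153). Ptx3, a protein of the cumulus matrix, had the lowest value of the list and signals of 9.17, 12.5 and 7.41 at 24 h and 116, 735 and 38.9 at 12 h (-2.78, SE 0.78, adjusted p = 0.119). The hyaluronan synthase gene Has2 did not pass either, at 29.9, 44.7 and 21.8 at 24 h and 25.3, 101 and 141 at 12 h (-0.95, adjusted p = 0.32). Rgcc, a cell cycle regulator that LH induces in granulosa cells, ran the other way, at 1316, 1248 and 899 at 24 h and 622, 301 and 290 at 12 h (1.55, SE 0.29). Its adjusted p was 0.0504, and 0.0221 with the replicate number as a block. With that block 5 members of the list fell and 1 rose. Without 12 h replicate 1, 2 or 3 the number that fell was 1, 0 and 5.

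Immediate early genes were nearly all lower at 24 h. Of 24 tested, 23 were lower and 1 higher (median -0.67), and 2 fell past the threshold (8.33%, against 0.446% of all genes), Fos and Egr3. Egr3, a zinc finger transcription factor, had signals of 58.2, 66.0 and 97.8 at 24 h and 339, 453 and 262 at 12 h (-2.02, SE 0.26, adjusted p = 0.0197). In 12 of the 24 the groups did not overlap with 24 h lower, a pattern shown by 12.2% of all genes. Just outside the threshold stood Klf4, a transcription factor of epithelia, at 248, 317 and 305 at 24 h and 623, 837 and 503 at 12 h (-1.11, adjusted p = 0.0504, and 0.0381 with the replicate number as a block), and Ier5 (-1.07, adjusted p = 0.0504, and 0.0472 with the block). Further members, Fosl1 at -1.96 and Egr1 at -1.42, were picked out after their values were seen, and their adjusted p was 0.0511 and 0.0562, and 0.0484 and 0.0242 with the block. With the block 7 of the 24 fell (1.33% of all genes did). The number was 2, 0 and 6 without 12 h replicate 1, 2 or 3. The orphan nuclear receptor gene Nr4a1, which FSH and LH induce through cAMP, had 24.5, 45.9 and 63.0 at 24 h and 107, 123 and 237 at 12 h (-1.49, adjusted p = 0.0773, and 0.025 with the block).

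Genes that respond to cAMP overlap with these lists. Of 17 tested, 12 were lower and 5 higher (median -0.65), and 1, Ereg, fell (5.88%, against 0.446% of all genes). With the block 2 fell, and without 12 h replicate 1, 2 or 3 the number was 0, 0 and 2. Crem, whose product includes the cAMP repressor ICER, had 180, 180 and 190 at 24 h and 324, 376 and 318 at 12 h (-0.83, adjusted p = 0.0537). The kinase gene Sik1 stood at -0.93 (adjusted p = 0.103). Neither passed. In both the 3 signals at 24 h lay below all 3 at 12 h, a pattern shown by 12.2% of all genes. Both were named for their small unadjusted p within the list, which favours that pattern.

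Neuropeptide and granin genes were mostly lower at 24 h. Of 10 tested out of 24 listed, 9 were lower and 3 fell (30%, against 0.446%), namely Nts, Nmu and Vgf, with a list median of -0.96. Vgf, a granin that nerve growth factor induces, had 12.2, 15.9 and 9.25 at 24 h and 51.0, 55.0 and 76.2 at 12 h (-1.42, SE 0.22, adjusted p = 0.0333). Nmb (neuromedin B) stood at 110, 122 and 172 at 24 h and 263, 315 and 354 at 12 h (-1.13, adjusted p = 0.0504, and 0.0331 with the block), and 5 members fell with the block. Without 12 h replicate 1, 2 or 3, 9 members were tested and 1, 1 and 2 fell. Crhbp, whose product binds corticotropin-releasing hormone, had 7.46, 1.65 and 8.23 at 24 h and 84.3, 130 and 182 at 12 h (-2.73, SE 0.29, adjusted p = 0.0131). At 24 h Crhbp, Nmu, Vgf and Cldn2 lay below the median signal of every array, so these levels are near the floor of the assay. Crhbp, Nmu, Vgf and Cldn2 passed the filter on mean signal through their 12 h values, so they could be called only as falls. The list was also chosen with earlier results of these data known. Its share of 30% beside that of all genes is therefore no test of the list.

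The other large falls included genes of the cell surface and of secreted factors. Ramp3, which turns the calcitonin receptor-like receptor into a receptor for adrenomedullin, had 15.0, 52.0 and 52.7 at 24 h and 230, 422 and 523 at 12 h (-2.88, SE 0.39). Il11, a cytokine gene, had 14.9, 52.7 and 27.3 at 24 h and 193, 156 and 258 at 12 h (-2.25, SE 0.32). Cd44, the receptor of hyaluronan, had 126, 148 and 138 at 24 h and 520, 393 and 559 at 12 h (-1.72, SE 0.19), and its 3 probe sets all passed. Procr, the receptor of protein C, stood at 278, 364 and 335 at 24 h and 1118, 1058 and 1872 at 12 h (-1.96, SE 0.23). The adjusted p of these 4 lay between 0.015 and 0.0274. Cldn2, a claudin of leaky tight junctions, had 4.62, 4.16 and 6.19 at 24 h and 66.2, 101 and 373 at 12 h (-2.89, SE 0.50, adjusted p = 0.0447). The remaining falls of the 20 were Tnfrsf23, a decoy receptor for TRAIL (-2.18), Sh2d5 (-2.04), Aard (-2.00), the imprinted gene Nnat (-1.97), Gprc5a (-1.85), the collagen receptor subunit gene Itga2 (-1.66) and Csf1r (-2.27). Of the 20 falls, 4 had a mean 24 h signal under the lowest array median (23.1), namely Crhbp, Nmu, Cldn2 and Gprc5a. They passed the filter on mean signal through their 12 h values, so they could be called only as falls.

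**Figure D2:**
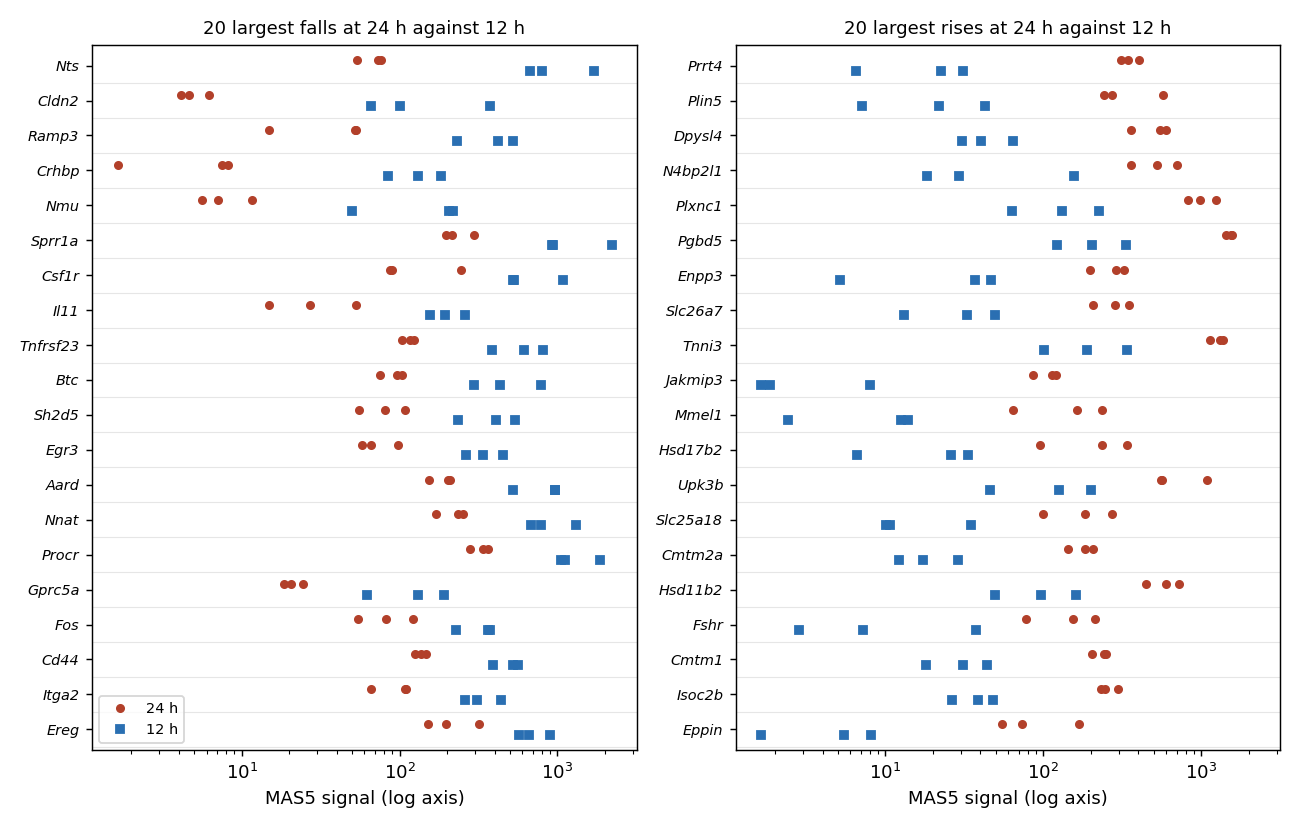
MAS5 signals (horizontal log axis) of the 20 genes with the largest falls (left) and the 20 with the largest rises (right) past the threshold, by gene down the page. Red circles are the 3 arrays of 24 h and blue squares the 3 of 12 h; in each of the 40 genes the circles and squares do not overlap, as the choice of the genes requires.

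The 20 largest rises held transmembrane and transporter genes, enzymes of steroids, a lipid droplet gene and the FSH receptor. Prrt4, a proline-rich transmembrane protein gene, had signals of 344, 312 and 405 at 24 h and 30.9, 22.6 and 6.53 at 12 h, a log2 change of 3.42 (SE 0.29, adjusted p = 0.0129) or 10.7-fold, on 1 of its 2 tested probe sets (the other stood at 0.22). Plin5, a lipid droplet coat protein gene, had 572, 271 and 241 at 24 h and 42.5, 21.8 and 7.13 at 12 h (3.24, SE 0.41, adjusted p = 0.0197), and both of its probe sets passed. Dpysl4, of the collapsin response mediator family, had 596, 549 and 358 at 24 h and 64.0, 30.4 and 40.3 at 12 h (3.09, SE 0.28, adjusted p = 0.0129). This was on 1 of its 2 tested probe sets, and the other stood at 1.14. All 3 genes were low on each of the 12 h arrays. Of the 20 rises, 8 had a mean 12 h signal under the lowest array median (23.1), so the sizes of these changes depend on the pseudocount. These 8 passed the filter on mean signal through their 24 h values, so they could be called only as rises.

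Among the brighter genes, Pgbd5, a gene derived from a piggyBac transposase, had 1562, 1535 and 1432 at 24 h and 333, 202 and 123 at 12 h (2.80, SE 0.29, adjusted p = 0.0131). Tnni3, which encodes troponin I of heart muscle, had 1131, 1383 and 1324 at 24 h and 338, 188 and 102 at 12 h (2.66, SE 0.35, adjusted p = 0.02). Plxnc1, the receptor of semaphorin 7A, had 1237, 826 and 983 at 24 h and 227, 132 and 63.7 at 12 h (2.84, SE 0.37, adjusted p = 0.0197), and all 5 of its probe sets passed. In these 3 genes the lowest of the 12 h signals was that of replicate 3.

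Of the steroid enzymes, Hsd17b2, which oxidises oestradiol to the weaker oestrone, had 95.7, 341 and 235 at 24 h and 6.59, 33.3 and 25.9 at 12 h (2.58, SE 0.45, adjusted p = 0.0448). Hsd11b2, which inactivates corticosterone, had 595, 444 and 723 at 24 h and 97.4, 160 and 49.4 at 12 h (2.44, SE 0.35, adjusted p = 0.0274). The other rises among the 20 included Slc26a7, an anion transporter gene (2.67), Enpp3, an ectonucleotidase gene (2.77), Mmel1, a membrane peptidase gene (2.62), Slc25a18, a mitochondrial glutamate carrier gene (2.53), and the family members Cmtm2a (2.47) and Cmtm1 (2.43). N4bp2l1 (3.03, with a second probe set at 1.46 that did not pass), Jakmip3 (2.64), Isoc2b (2.37) and the protease inhibitor gene Eppin (2.33) completed them with Upk3b and Fshr. Among the 40 genes, 13 had more than 1 tested probe set. In all 13 the probe sets had 1 direction, and in 8 all passed.

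Granulosa cell markers were mostly higher at 24 h. Of 19 tested, 17 were higher and 2 lower (median 0.73), and 2 rose (10.5%, against 0.991% of all genes) and 1 fell. Fshr, the FSH receptor, had signals of 213, 78.0 and 155 at 24 h and 37.4, 7.19 and 2.86 at 12 h (2.43, SE 0.45, adjusted p = 0.0489). Each array of 24 h lay above all of 12 h, as the choice of the largest rises requires. Since most of its 12 h signals lay below the array medians, the size of the change depends on the pseudocount, and it ran from 1.57 to 3.70 over the alternatives. Fshr passed the filter on mean signal through its 24 h values, so it could be called only as a rise. Foxl2, the transcription factor that keeps granulosa cell identity, changed by 1.05 (SE 0.14, adjusted p = 0.02) from the signals given above. Hsd17b1, which makes oestradiol from oestrone, had 1216, 1169 and 1325 at 24 h and 437, 495 and 118 at 12 h (1.99, SE 0.44, adjusted p = 0.0714, and 0.0486 with the replicate number as a block). Inhbb, an inhibin and activin subunit, had 1050, 746 and 1376 at 24 h and 417, 431 and 554 at 12 h (1.12, adjusted p = 0.0595, and 0.0287 with the block), and Inhba stood at 1.09 (adjusted p = 0.0923).

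Against the rest of the list, Aard had 208, 202 and 153 at 24 h and 525, 971 and 968 at 12 h (-2.00, SE 0.26, adjusted p = 0.0197). Amh itself had signals of 21.7, 18.2 and 13.1 at 24 h, all below their arrays' medians, and 76.3, 221 and 12.4 at 12 h, and did not pass (-1.35, SE 0.64, adjusted p = 0.307). For Amhr2, the AMH receptor, the brightest probe set did not pass (0.73, SE 0.29, adjusted p = 0.229), while another did (1.61, adjusted p = 0.0496). The list's summed signal, over 21 genes on the array, was 15610 to 16640 at 24 h and 8538 to 12660 at 12 h, with no overlap. With the block 5 members rose and 1 fell. Without 12 h replicate 1, 2 or 3 the rises numbered 3, 0 and 4 and the falls 1, 0 and 2, at medians of 0.94, 1.03 and 0.47.

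FSH-induced genes, with 12 of 15 higher (median 0.60), luteinisation markers, with 11 of 14 higher (median 0.52), and steroidogenesis genes, with 11 of 11 higher (median 0.48), held no call of their own. The lists share members, such as Star and Cyp11a1 in all 3. The FSH-induced list also shares Inhba, Inhbb and Hsd17b1 with the granulosa markers, so these are not separate sets. With the block 3, 2 and 1 members of the 3 lists rose (2.23% of all genes did). Without 12 h replicate 3, 2 FSH-induced genes rose and 1 fell, and 1 luteinisation and 2 steroidogenesis genes rose, the last list at a median of 0.73. Without replicate 1 the rises of the 3 lists numbered 1, 1 and 0, and without replicate 2 all were 0. Igf1r, the IGF1 receptor that amplifies the FSH signal, had 1046, 707 and 823 at 24 h and 528, 271 and 411 at 12 h (1.09, adjusted p = 0.0748, and 0.027 with the block). Star, which carries cholesterol into mitochondria, had 2203, 1472 and 1628 at 24 h and 1557, 919 and 1708 at 12 h (0.37, adjusted p = 0.479), with overlap. Cyp11a1, the side-chain cleavage enzyme, had 2383, 2190 and 2124 at 24 h and 1418, 483 and 2361 at 12 h (0.91, adjusted p = 0.346), where replicate 3 of 12 h was as high as the 24 h arrays. Of the luteinisation list, Scarb1, the HDL receptor, stood at 0.63 (adjusted p = 0.12), Parm1 at 1.30 (adjusted p = 0.138, and 0.0379 with the block) and the cell cycle inhibitor gene Cdkn1b at 0.82 (adjusted p = 0.157, and 0.044 with the block). Cholesterol biosynthesis genes had a median of 0.08 over 20 genes, with 16 higher, and -0.02 when arrays were centred on their median. Its largest change was that of Tm7sf2 (1.12, adjusted p = 0.0615, and 0.041 with the block).

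Mitosis genes were lower at 24 h without exception in their direction. All 33 tested mitosis genes were lower (median -0.89), 24 of them at an unadjusted p under 0.05, beside 8.94% of all genes, and 1 passed (3.03%, against 0.446%). That was Ube2c, the ubiquitin-conjugating enzyme of the anaphase-promoting complex, at 482, 726 and 557 at 24 h and 1260, 1721 and 1061 at 12 h (-1.16, SE 0.22, adjusted p = 0.0496). The kinesin gene Kif20a followed, at 104, 126 and 144 at 24 h and 274, 407 and 250 at 12 h (-1.19, adjusted p = 0.051, and 0.044 with the block). Top2a, the topoisomerase of dividing cells, had 97.8, 128 and 109 at 24 h and 308, 253 and 191 at 12 h (-1.04, adjusted p = 0.0645), and the mitotic kinase gene Cdk1 had 191, 234 and 167 at 24 h and 350, 391 and 336 at 12 h (-0.82, adjusted p = 0.0699). Neither passed, and in both the groups did not overlap with 24 h lower, as in 12.2% of all genes. With the block 6 mitosis genes fell (1.33% of all genes did). The number was 0, 0 and 11 without 12 h replicate 1, 2 or 3, and in each of these fits all 33 were lower.

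DNA replication genes had 31 of 33 lower (median -0.45) and none past the threshold, while 11 had an unadjusted p under 0.05 and 2 fell with the block and 0 without 12 h replicate 1, 2 or 3. Pcna, the sliding clamp of DNA polymerase, had 820, 1014 and 954 at 24 h and 1438, 1650 and 1375 at 12 h (-0.67, adjusted p = 0.0625, and 0.0449 with the block). Mcm2 and Mcm3, subunits of the replicative helicase, stood at -0.79 and -0.67 (adjusted p = 0.148 and 0.13). The list of cell cycle regulators had a median of -0.15, with 5 of 17 higher and no call, and the cyclin-dependent kinase inhibitor Cdkn1a stood at -0.52 (adjusted p = 0.239).

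**Figure D3:**
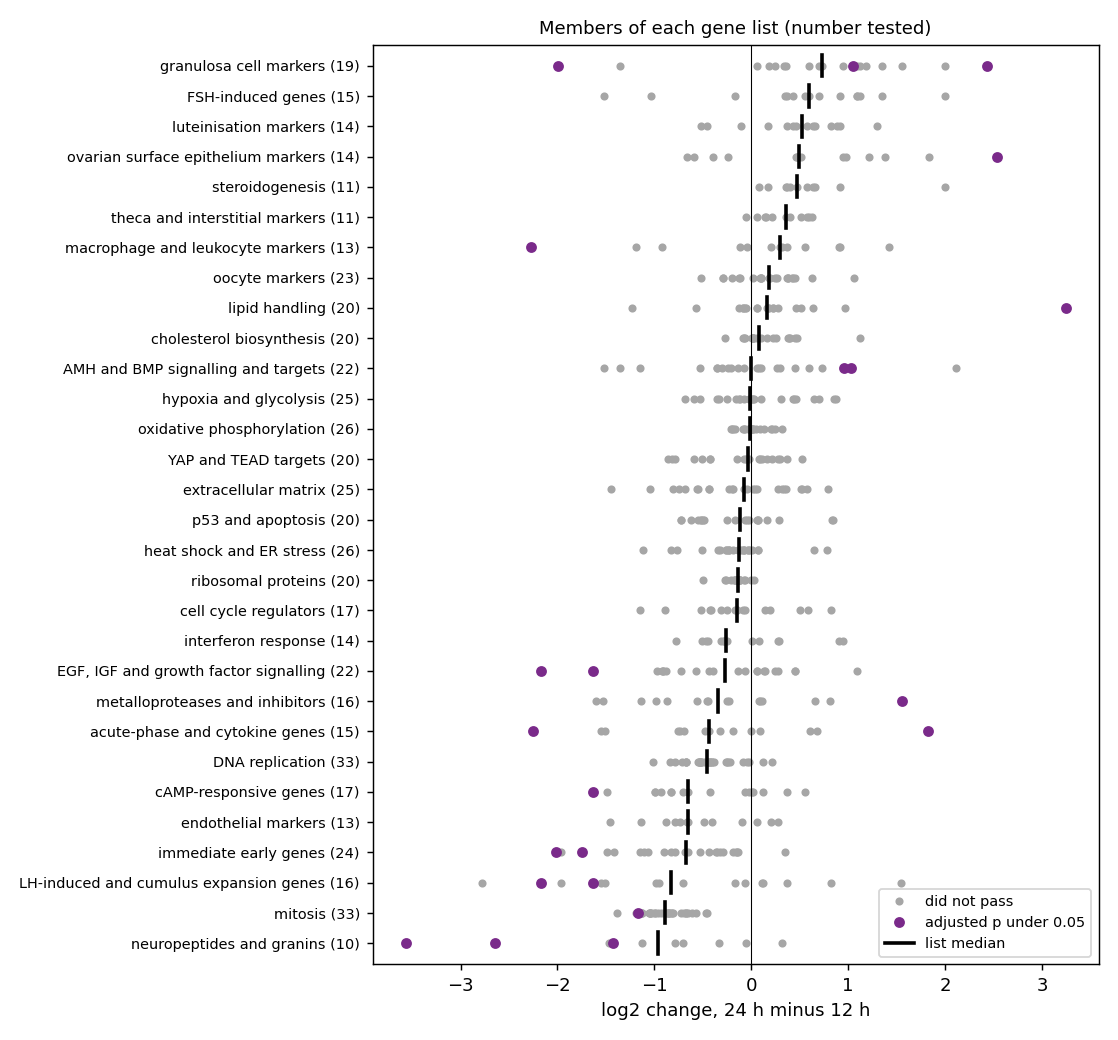
Log2 change, 24 h minus 12 h (horizontal axis), of each tested member of the 30 gene lists, with the number tested in brackets and lists ordered by their median (black bar). Purple points passed an adjusted p of 0.05 and grey points did not; neuropeptide, mitosis and LH-induced genes have the lowest medians (-0.96, -0.89 and -0.83) and granulosa markers the highest (0.73).

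Of the lists for growth factors and the matrix, metalloproteases and their inhibitors moved both ways. Mmp11, a stromelysin, rose to 1792, 1833 and 1716 at 24 h, against 810, 452 and 571 at 12 h (1.56, SE 0.20, adjusted p = 0.0197). No other member was called (6.25%, against 0.991% of all genes), and 10 of the 16 tested members were lower (median -0.35). Mmp19 had 213, 164 and 379 at 24 h and 782, 553 and 979 at 12 h (-1.60, adjusted p = 0.0539, and 0.0203 with the block), and Plaur, the urokinase receptor, stood at -1.53 (adjusted p = 0.112). With the block 4 of them fell and 1 rose, while without 12 h replicate 1, 2 or 3 none fell and 1 rose. Extracellular matrix genes had a median of -0.08, with 0 of 25 past the threshold and 1 with the block. Without 12 h replicate 3 the median was 0.22, with 1 rise and 1 fall, and without replicate 2 it was -0.31. Lox, the crosslinking enzyme of collagen, at 36.7, 77.1 and 43.4 at 24 h and 308, 153 and 92.4 at 12 h, did not pass (-1.45, adjusted p = 0.114). YAP and TEAD targets had a median of -0.04, and none of 20 passed; the median was between -0.09 and 0.05 with 1 array left out.

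Growth factor signalling genes had a median of -0.27 over 22 genes, and 2 fell (9.09%, against 0.446% of all genes). They were Btc and Ereg, already counted in the list of LH-induced genes. Without 12 h replicate 1, 2 or 3 the falls numbered 1, 0 and 2. Spry2, a feedback inhibitor of receptor tyrosine kinases, had 385, 461 and 386 at 24 h and 727, 632 and 1051 at 12 h and did not pass on its brightest probe set (-0.91, adjusted p = 0.0715), while another probe set did (-1.39, adjusted p = 0.0447). Of the AMH and BMP pathway, 11 of 22 genes were higher, and 2 rose (9.09%, against 0.991% of all genes). That number was 1 after median centring and 1, 0 and 2 without 12 h replicate 1, 2 or 3. No member fell in the main fit, while 1, 0 and 2 fell without these arrays. Bmpr2, the type 2 receptor of BMPs, had 1672, 1562 and 1396 at 24 h and 959, 696 and 618 at 12 h (1.03, SE 0.18, adjusted p = 0.0447). Id2, a target of BMP signalling that blocks basic helix-loop-helix factors, had 569, 470 and 562 at 24 h and 301, 286 and 217 at 12 h (0.96, SE 0.18, adjusted p = 0.0496). Id4, of the same family, had 24.7, 38.4 and 37.8 at 24 h and 60.7, 106 and 123 at 12 h (-1.15, adjusted p = 0.0819, and 0.0416 with the block), so that these family members had opposite signs.

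Stress, metabolic and inflammatory lists held few calls. Heat shock and ER stress genes had a median of -0.13, with 21 of 26 lower and none past the threshold; Hspa1b stood at 770, 760 and 1181 at 24 h and 1267, 2220 and 1414 at 12 h (-0.83, adjusted p = 0.134), while Pdia4, an ER folding enzyme, was higher (0.79, adjusted p = 0.0632, and 0.0403 with the block). Without 12 h replicate 1, 1 heat shock and ER stress gene fell. The p53 and apoptosis list had a median of -0.12 over 20 genes and no call, but 1 rise without 12 h replicate 3. Hypoxia and glycolysis genes (25 tested) had a median of -0.01 and oxidative phosphorylation genes (26 tested) of -0.02, which were 0.07 and 0.05 after quantile normalization. Without 12 h replicate 1, 2 or 3 the first median was 0.03, 0.07 and -0.14, and the second was -0.07, 0.03 and -0.004. Ribosomal protein genes were lower in 19 of 20, with a median of -0.14 and changes between -0.50 and 0.02, and none passed. That median was -0.05, with 4 of 20 higher, after quantile normalization, and -0.24, with 0 higher, after median centring. It was -0.23, -0.07 and -0.12 without 12 h replicate 1, 2 or 3. The list's medians per array overlapped between the times. Interferon response genes had a median of -0.27, and none of 14 passed. That median was 0.09 over 12 genes without 12 h replicate 3. Among acute-phase and cytokine genes, 11 of 15 were lower (median -0.44, and -0.17 without 12 h replicate 3). Of these genes 1 fell and 1 rose (13.3% in all, against 1.44% of all genes). The fall was Il11, and no member fell without 12 h replicate 2. Saa3, a serum amyloid, rose to 227, 187 and 186 at 24 h, against 35.2, 69.6 and 35.8 at 12 h (1.82, SE 0.25, adjusted p = 0.0259). Il1rn, the interleukin-1 receptor antagonist, stood at -1.51 (adjusted p = 0.0714, and 0.0207 with the block). Lipid handling genes had a median of 0.16, and 1 of 20, Plin5, rose (5%, against 0.991% of all genes). Without 12 h replicate 1, 2 or 3 the rises numbered 1, 0 and 2. Plin2, another coat protein of lipid droplets, stood at -0.57 (adjusted p = 0.153) and Fabp4 at -1.23 (adjusted p = 0.132).

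Markers of other cell types varied between pools. Oocyte markers were higher in 17 of 23 (median 0.19) with none past the threshold, and their summed signal over 25 genes was 3976, 13960 and 7531 at 24 h and 9877, 18860 and 1787 at 12 h. The direction of the list turned with the array left out. Its median was -0.93 without 12 h replicate 3 and 1.01 without 12 h replicate 2, and 0.66 and -0.27 without 24 h replicate 1 or 2. Theca and interstitial markers were higher in 10 of 11 (median 0.36), none passed, and they summed to 5649 to 8903 at 24 h and 3847 to 10520 at 12 h. Their median was 0.82, with 1 rise, without 12 h replicate 3, 0.04 without 12 h replicate 2 and -0.004 without 24 h replicate 3. Endothelial markers were lower in 10 of 13 (median -0.66), none passed, and they summed to 1387 to 2992 at 24 h and 1771 to 6794 at 12 h, the highest being replicate 3. Without that array the median was 0.00. Flt1, a VEGF receptor, had 51.2, 59.7 and 145 at 24 h and 151, 185 and 484 at 12 h (-1.45, adjusted p = 0.153, and 0.0222 with the block), and Cdh5, the cadherin of endothelium, had 157, 158 and 381 at 24 h and 347, 301 and 1089 at 12 h (-1.14, adjusted p = 0.27, and 0.0364 with the block). In both genes replicate 3 was the highest of its time at 24 h and at 12 h, and without 12 h replicate 3 Flt1 stood at -0.97 and Cdh5 at -0.57.

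Macrophage and leukocyte markers did not move as 1 list, and of the 13 tested 1 fell (7.69%, against 0.446% of all genes). Without 12 h replicate 1, 2 or 3 the falls numbered 0, 0 and 1 and the rises 0, 0 and 2. Csf1r, the receptor of colony stimulating factor 1, had 86.4, 90.3 and 246 at 24 h and 526, 1077 and 528 at 12 h (-2.27, SE 0.41, adjusted p = 0.0465). Of its other 2 probe sets, 1 passed (-1.68, adjusted p = 0.0326) and 1 did not (-0.80, adjusted p = 0.098). Of the other 12 tested members 8 were higher, among them Lyz2, at 314, 295 and 662 at 24 h and 99.4, 105 and 246 at 12 h (1.42, adjusted p = 0.115, and 0.0207 with the block), and Tyrobp, at 179, 218 and 236 at 24 h and 78.9, 103 and 136 at 12 h (0.91, adjusted p = 0.0932). Cd14 was lower (-1.19, adjusted p = 0.0892, and 0.0356 with the block). The list's median was 0.30, between 0.04 and 0.59 with 1 array left out, and its summed signal over 20 genes was 1501 to 3474 at 24 h and 1891 to 2981 at 12 h.

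Surface epithelium markers were higher in 10 of 14 (median 0.50, and 0.21, 0.67 and 0.85 without 12 h replicate 1, 2 or 3), and 1 rose (7.14%, against 0.991%). With the block 3 rose, and without those arrays 1, 0 and 2. Upk3b, a uroplakin gene of mesothelium, had 560, 1096 and 564 at 24 h and 46.0, 201 and 127 at 12 h (2.53, SE 0.45, adjusted p = 0.0457). Gpm6a had 273, 569 and 261 at 24 h and 55.7, 132 and 81.1 at 12 h (1.83, adjusted p = 0.0537, and 0.0203 with the block), Muc16 had 57.4, 87.0 and 56.3 at 24 h and 13.5, 17.1 and 29.1 at 12 h (1.21, adjusted p = 0.0608), and Wt1 stood at 0.95 (adjusted p = 0.0901, and 0.0484 with the block). The summed signal of the 14 genes was 5454 to 9725 at 24 h and 4642 to 7746 at 12 h, so the groups overlapped. The part of these cell types in the changes of other genes was not tested.

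**Figure D4:**
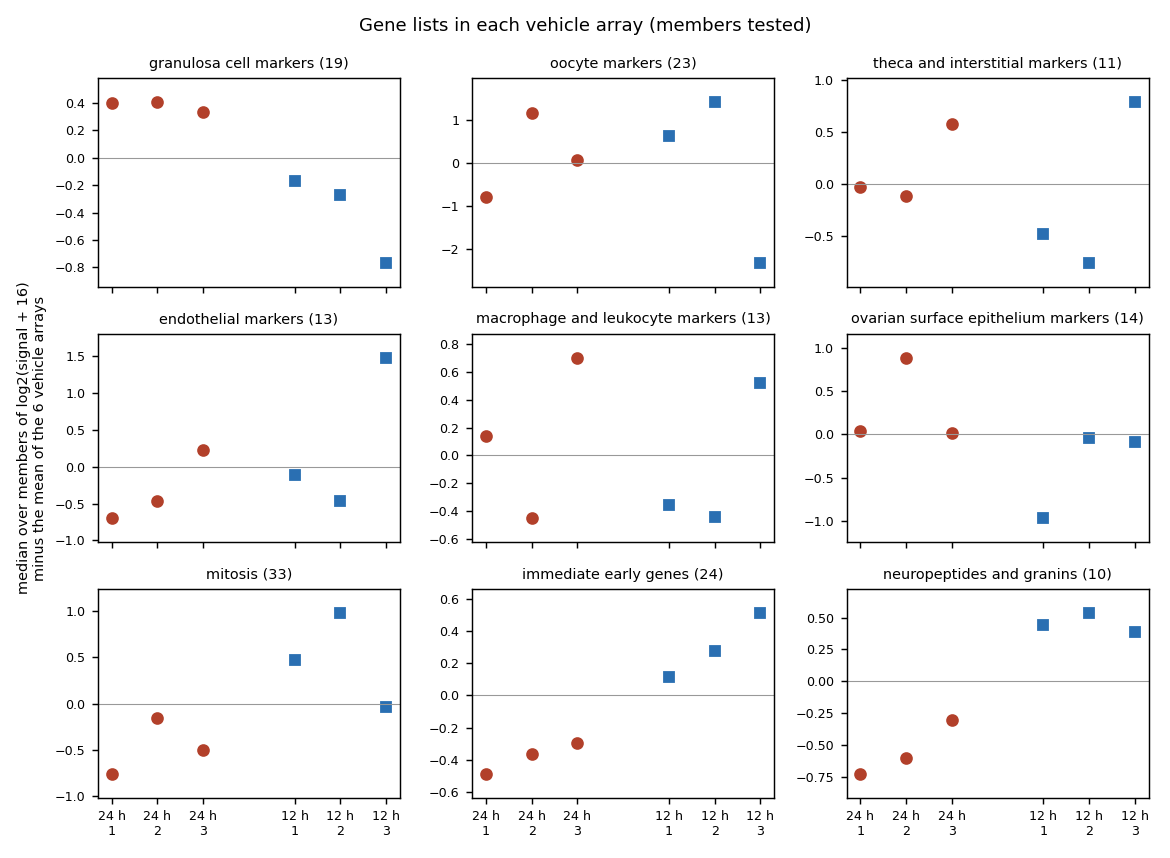
Median over the tested members of 9 lists of log2(signal + 16) minus the mean of the 6 vehicle arrays (vertical axes) for each array, with 24 h replicates 1 to 3 as red circles on the left and 12 h replicates 1 to 3 as blue squares on the right. Granulosa markers lie between 0.33 and 0.40 in the 24 h arrays and between -0.77 and -0.17 in those of 12 h, while oocyte markers span 1.17 to -0.78 at 24 h and 1.42 to -2.32 at 12 h, with the lowest in replicate 3.

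The AMH cultures came from the same pools as the vehicle cultures of their time, so their change with time shares each pool's own deviations and is no independent repeat. It is given beside the vehicle change. Of the 50 ng/mL arrays, replicate 3 at 12 h stood apart from all others (median r with the other arrays 0.615) and is left out of these values, which leaves 2 arrays at 12 h for that dose. Replicate 3 at 12 h of 200 ng/mL had the next lowest median r (0.919) and the lowest median signal of the series (18.0), and was kept. The 20 largest rises of the vehicle cultures, at 2.33 to 3.42, stood at 0.93 to 4.18 in cultures with AMH at 200 ng/mL and at 1.09 to 3.80 with 50 ng/mL. The 20 largest falls, at -3.57 to -1.64, stood at -3.67 to -1.25 with 200 ng/mL and at -3.73 to -0.97 with 50 ng/mL. None of the 40 genes had the opposite sign in these values. For Ereg the values were -2.22 with 200 ng/mL and -0.97 with 50 ng/mL beside -1.64 in vehicle, and with the array that stood apart the 50 ng/mL value was 0.59. Fshr stood at 2.24 with 200 ng/mL and 1.72 with 50 ng/mL beside 2.43 in vehicle.

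Whether the change with time differed between AMH and vehicle cultures was tested in limma as an interaction with the pool as a block. No probe set of 22518 passed at 200 ng/mL (0%, smallest adjusted p = 1, 264 at an unadjusted p under 0.05) or at 50 ng/mL (0%, smallest adjusted p = 0.692, 416 at an unadjusted p under 0.05). With that 50 ng/mL array left out both counts were again 0, with smallest adjusted p of 0.629 at 200 ng/mL and 0.998 at 50 ng/mL, while 1619 and 734 probe sets had raw p below that level. The SE of these differences, 0.46 for Fshr and 0.32 for Ereg at 200 ng/mL without that array, limits what could be detected.

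**Figure D5:**
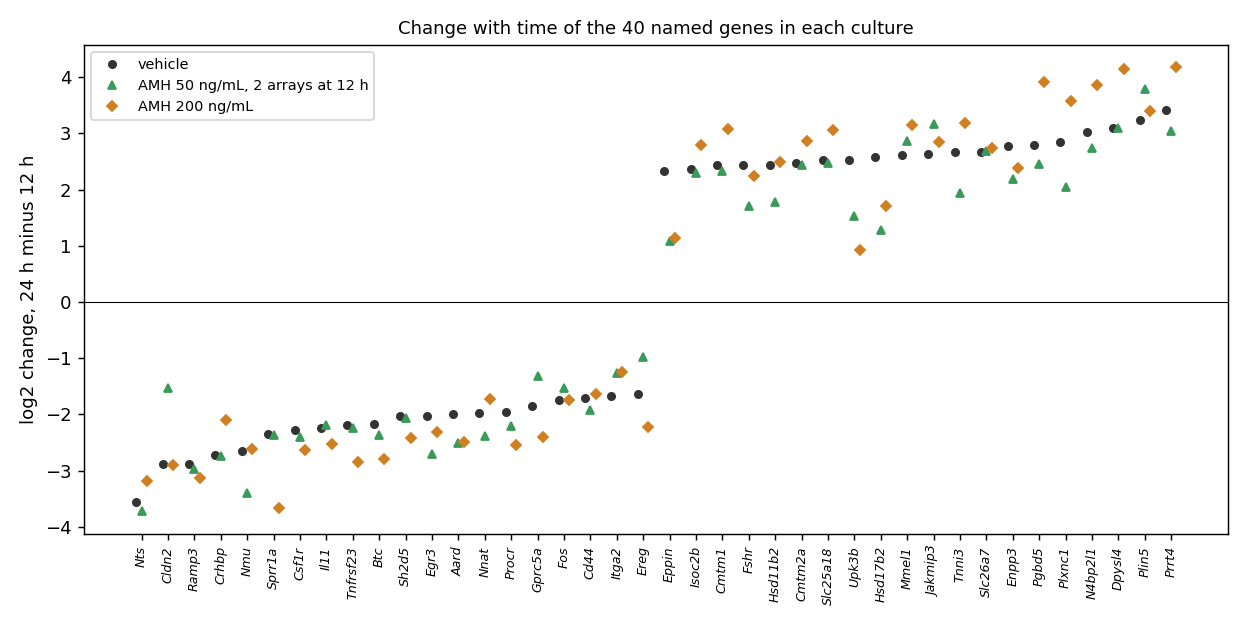
Log2 change, 24 h minus 12 h (vertical axis), of the 40 genes with the largest vehicle changes (horizontal axis, ordered by that change) in vehicle (dark circles), AMH 50 ng/mL with 2 arrays at 12 h (green triangles) and AMH 200 ng/mL cultures (orange diamonds). The doses share pools of follicles, and all 3 symbols of a gene lie on 1 side of 0.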

How the data were processed

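RNA of pooled follicles (5 ng per culture) was amplified with the Ovation Pico WTA system and hybridised to Affymetrix mouse arrays, per the labels. The deposited values are signal intensity on a linear scale, computed by the authors with MAS5 per the submitters' processing notes, and were used without further normalization. The log2 of the deposited signal + 16 was taken here. With 64 controls set aside, 45037 probe sets remained. Of these 34945 had 1 gene symbol, 932 several and 9160 none listed. The 22518 above the 50th percentile of mean log2 signal over the 6 vehicle arrays were tested unpaired and two-sided, by the linear models of limma (3.58.1, run in R 4.3.3) with moderated variances that follow the intensity, on 4 residual degrees of freedom. P-values were adjusted over all of them by the Benjamini-Hochberg method, with a threshold of 0.05. Figures used matplotlib 3.10.9 in python 3.11.15.

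For each gene the brightest tested probe set on average was taken. The genes named were those past the threshold with groups that did not overlap, limited to the 20 strongest in each direction, up to 4 members of each of 30 lists with the smallest unadjusted p, and fixed follicle genes. Not all are printed, and some genes are not reported here. Of the red blood cell list, 0 of 10 genes were tested. The comparison, the lists and the rules were chosen with earlier results of these data known. The description of the AMH samples of 12 h gives 24 h. Their titles and source names say 12 h and were followed.

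Vehicle arrays with the same replicate number deviated together from their group means (r = 0.314, 0.261 and 0.208 across probe sets, against -0.206 to -0.028 for other pairs). Deviations from a group mean cancel within the group, so positive values for the same numbers force negative ones among other pairs. The labels do not say what the numbers share and pair no arrays across the times. The correlation comes from these same data and does not establish a pairing. The fit with the number as a block is given only beside results it changes. The calls counted here are those of the unpaired fit. Alternatives changed the pseudocount, normalization, filter, trend, array weights, arrays in the fit and the summary of several probe sets, and omitted each array in turn. In data simulated from the vehicle arrays, 33% of 100 probe sets shifted by 1 on the log2 scale and 88% of 100 shifted by 2 were called, with 4 of the unchanged ones among the 22518.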

Additional observations from a re-analysis of the deposited data

How the results depend on the processing

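The 246 calls (169 higher and 77 lower at 24 h) became 144 (100 and 44) with a pseudocount of 1, 60 (42 and 18) without a filter, 65 (44 and 21) with the 75th percentile filter, 774 (469 and 305) with array weights, 37 (33 and 4) with all 18 arrays in the fit and 676 (411 and 265) with 17. With the replicate number as a block they were 629 (407 and 222). Leaving out 1 array gave 0 to 461 calls (0 to 285 higher and 0 to 176 lower). Other settings gave 193 to 312. Median centring, which put the median change of all tested probe sets at -0.09, against 0.01 as deposited, gave 223 (138 and 85). Every call still tested kept its sign in each of the 18 alternatives. In all 246 the groups did not overlap. Leaving out or weighting arrays, or changing the pseudocount, filter or trend, could therefore not turn a sign. Among the list members and named genes, the block gave a call to 37, some of them printed with the results, ended none and changed no other call, while over all probe sets 1 of the 246 calls ended. Of the list medians, 532 values stayed within 1 SD of the arrays and 38 moved further. With 3 arrays a time, leaving out any array of 24 h left at most 1 call; dim genes lie near the floor of the signal, and no culture before 12 h shows where the changes began.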
